A study of Homo sapiens with 6 samples.

Results

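Among the 2128 genes listed for SNU668 cells with and without knockdown of GPER1 are 3 secreted inflammatory factors, IL6, CXCL8 and CCL2, and the NF-kB transcription factor RELB. These 4 genes were chosen by symbol, and each has 1 entry in every table. SNU668 is an established line of gastric signet-ring carcinoma cells. RNA-seq was available for 3 libraries titled shControl, whose genotype is labelled WT, and 3 libraries titled shGPER, whose genotype is labelled GPER knockdown; no other treatment, dose or time is labelled. It is unclear from these labels whether the control cells carried a hairpin, whether the knockdown rests on 1 hairpin or several, and whether it is 1 clone. Separate cultures for the libraries of a group are not mentioned, so a p-value here reflects the spread between these 6 libraries alone, which may be technical.

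NF-kB is a family of dimeric transcription factors held inactive by inhibitor proteins until kinases downstream of cytokine, Toll-like and TNF-family receptors release them. In the canonical arm, dimers with RELA drive inflammatory genes such as IL6, CXCL8 and CCL2, together with AP-1 and C/EBP factors. RELB partners NFKB2 in the non-canonical arm, which receptors such as the lymphotoxin receptor switch on, and RELB is itself a known target gene of NF-kB. IL6 signals through gp130 and STAT3, CXCL8 (interleukin 8) draws neutrophils, and CCL2 (MCP-1) draws monocytes; all are made by many carcinoma cells.

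The promoters of IL6 and CXCL8 are shown because both genes carry textbook kB sites close to the transcription start, and 2 of the 4 genes matched an entry by symbol in the RefSeq promoter table (GRCh38.p14). The start used here is that of the RefSeq entry. The GENCODE gene positions given below begin further upstream, at 22725884 for IL6 and 73740506 for CXCL8. By those positions the IL6 window lies inside the gene and the CXCL8 window reaches into it. Each sequence is the 250 bases on the plus strand that end just before the RefSeq start, chr7:22726950-22727199 for IL6 and chr4:73740319-73740568 for CXCL8, with matches to any of 5 patterns in capitals.
IL6: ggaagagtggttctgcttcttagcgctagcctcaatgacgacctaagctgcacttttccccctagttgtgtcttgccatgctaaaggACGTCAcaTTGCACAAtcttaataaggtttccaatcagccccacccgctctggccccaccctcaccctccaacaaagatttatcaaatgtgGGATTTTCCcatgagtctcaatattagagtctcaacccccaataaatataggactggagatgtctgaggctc
CXCL8: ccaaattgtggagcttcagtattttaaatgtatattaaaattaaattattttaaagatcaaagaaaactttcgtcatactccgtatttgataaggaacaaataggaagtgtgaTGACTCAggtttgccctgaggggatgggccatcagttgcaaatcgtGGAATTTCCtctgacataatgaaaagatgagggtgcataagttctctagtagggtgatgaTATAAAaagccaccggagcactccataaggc

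The patterns, searched on both strands, were GGANTTTCC for a T-rich kB site, TGANTCA for AP-1, TTGCNNAA for C/EBP, ACGTCA for the core of a cyclic AMP response element and TATAAA for the TATA box. GGANTTTCC was written to cover the known sites of both promoters, so its presence in them is no finding. It lay 64 to 72 bases before the start in IL6 and 83 to 91 bases before it in CXCL8, and 1.45% of 35116 promoter windows of the same length held it. Beside it, IL6 held the C/EBP pattern (9.05% of windows) and the cyclic AMP core (7.10%), 148 to 155 and 158 to 163 bases before the start, whereas CXCL8 held the AP-1 pattern (6.57%), 131 to 137 before the start, and a TATA box (10.7%), 26 to 31 before the start. A match describes letters and does not show that a factor binds there.

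The tables cover part of the transcriptome. They give TPM, the level of a gene's transcripts corrected for their length and scaled to the total of the library. The listed genes sum to 4.66 to 6.42% of a whole library. That sum was 61181 to 64236 TPM in shControl and 46584 to 49148 TPM in shGPER libraries. The number of reads is unknown, so no counting error can be given. A level of 1 TPM in 3 or more libraries was required for testing, which 1651 of the 2128 genes met; 98.4% of these were called different (limma, adjusted p under 0.05), and in 97.4% of them the values of the groups did not overlap. How the listed genes were selected is not stated; since nearly all of them differ, a call for any single gene is close to the background. GPER1, the targeted gene, was at 10.41 to 11.04 TPM in shControl and 1.83 to 2.47 TPM in shGPER libraries. Of 12 epithelial and gastric markers the table held CDH1, under 1 TPM in every library, and TFF1, which fell from 4.64, 4.44 and 6.22 TPM in shControl to 2.91, 2.24 and 0.26 TPM in shGPER libraries; the other markers were not analysed here. None of 8 leukocyte markers was listed.

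The first comparison asked how the 3 secreted factors and RELB differed between shControl and shGPER cells. IL6, CXCL8 and CCL2 were all lower in the knockdown libraries, CCL2 by the widest margin, and RELB was higher. All 4 genes were called and had groups that did not overlap, against backgrounds of 50.6% of tested genes called lower, 47.8% called higher, and 50.1% and 47.3% with shGPER values wholly below or above. In a bulk culture fewer cells that make a factor and less of its RNA per cell cannot be told apart.

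IL6 (ENSG00000136244; chromosome 7, 22725884 to 22732002, plus strand, GRCh38) was the most abundant of the 4. Its level was 152.99, 156.01 and 157.67 TPM in shControl libraries 1 to 3 and 73.87, 72.40 and 81.14 TPM in shGPER libraries 1 to 3. The control values lay within a few percent of each other, and shGPER library 3 stood somewhat above the other knockdown libraries. The mean went from 156 ± 2.37 to 75.8 ± 4.68 TPM (SD, n = 3 each), so that 48.7% was left. The log2 fold change on the log2(TPM + 1) scale was -1.03 (SE 0.058, 95% interval -1.16 to -0.89; limma, adjusted p = 9.37e-07). Reads from STEAP1B and from an antisense RNA gene, which overlap IL6 on the opposite strand, cannot be told apart from it unless strand was used in counting, which no source used here states.

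CXCL8 (ENSG00000169429; chromosome 4, 73740506 to 73743716, plus strand) changed least. Control libraries 1 to 3 stood at 96.69, 98.77 and 102.45 TPM, knockdown libraries 1 to 3 at 53.89, 54.51 and 52.29 TPM. The knockdown values were the tightest of any member, with a coefficient of variation of 2.14%. From 99.3 ± 2.92 to 53.6 ± 1.15 TPM (SD, n = 3 each), 53.9% remained, a log2 fold change of -0.88 (SE 0.052, 95% interval -0.997 to -0.759; limma, adjusted p = 1.12e-06).

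CCL2 (ENSG00000108691; chromosome 17, 34255218 to 34257203, plus strand) fell furthest. Its shControl libraries were at 82.02, 85.49 and 77.21 TPM and its shGPER libraries at 23.79, 19.67 and 18.84 TPM. Even the lowest control library was 3.25 times the highest knockdown library. The mean dropped from 81.6 ± 4.16 to 20.8 ± 2.65 TPM (SD, n = 3 each), to 25.5% of the control, with a log2 fold change of -1.93 (SE 0.092, 95% interval -2.14 to -1.72; limma, adjusted p = 4.28e-07).

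RELB (ENSG00000104856; chromosome 19, 45001430 to 45038198, plus strand) was the least abundant member in control cells. It was at 10.99, 9.90 and 9.94 TPM in shControl and at 21.45, 21.28 and 25.22 TPM in shGPER libraries. Library 3 was again the highest of the knockdown group. The mean rose from 10.3 ± 0.618 to 22.7 ± 2.23 TPM (SD, n = 3 each), 2.20 times the control level, with a log2 fold change of 1.07 (SE 0.090, 95% interval 0.86 to 1.27; limma, adjusted p = 6.98e-06). Tested alone, each of the 4 genes had p = 0.1 in a two-sided exact permutation test, and a design of 3 against 3 can give no smaller p.

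**Figure D1:**
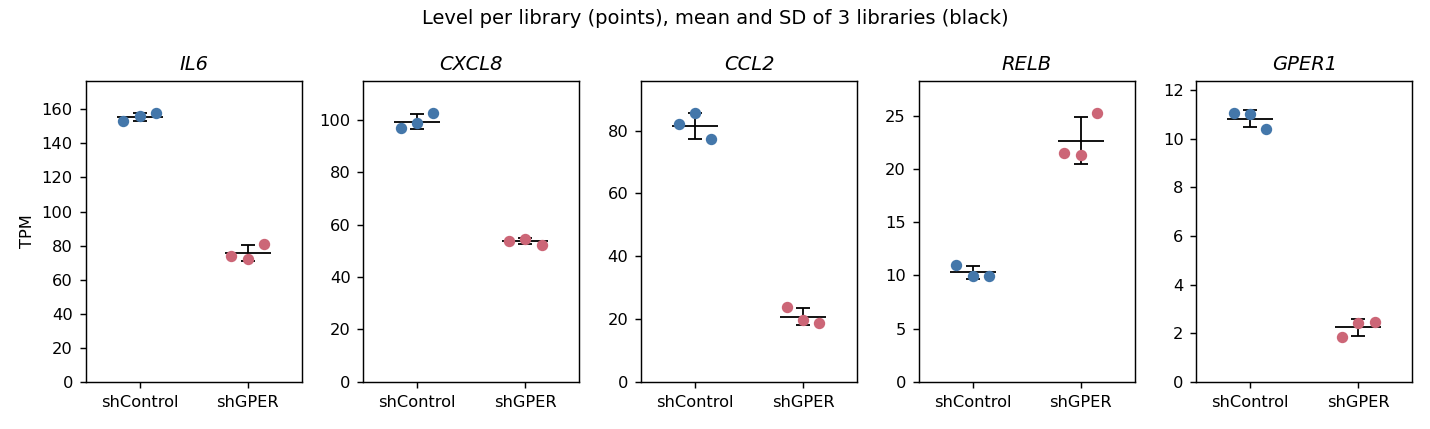
TPM of IL6, CXCL8, CCL2, RELB and the targeted gene GPER1 in each library (points), with the mean and SD of 3 libraries per group in black; each panel has its own axis from 0. The shGPER points lie below all shControl points for IL6, CXCL8, CCL2 and GPER1 and above them for RELB.

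Set against the other tested genes, only the size of the CCL2 change was far from the middle. Its fall was larger than that of 95.4% of the 849 tested genes with a negative log2 fold change, that of IL6 larger than 56.5% and that of CXCL8 larger than 34.4%. The rise of RELB exceeded that of 42.0% of 802 genes with a positive value. The median log2 fold change was -0.99 over all genes called lower and 1.13 over all genes called higher, so IL6, CXCL8 and RELB changed about as much as a typical gene of this table.

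TPM can be compared between genes, and the order of abundance in control cells was IL6, CXCL8, CCL2 and RELB, and the values of neighbours in that order did not overlap. IL6 held place 47 among the 2128 listed genes, CXCL8 place 70, CCL2 place 97 and RELB place 717. In shGPER cells IL6 (place 93) and CXCL8 (place 143) kept their order, again without overlap. CCL2 (place 379) and RELB (place 353) did overlap there. CCL2 was 1.11 times RELB in shGPER library 1 and 0.924 and 0.747 times RELB in libraries 2 and 3, whereas it had been 7.46 to 8.64 times RELB in control libraries. The 3 secreted factors together summed to 332 to 340 TPM in the control libraries and to 147 to 152 TPM in the knockdown libraries. Within that sum the share of CCL2 went from 24.2 ± 1.19% to 13.8 ± 1.70%, that of CXCL8 from 29.5 ± 0.743% to 35.7 ± 1.43% and that of IL6 from 46.2 ± 0.457% to 50.5 ± 2.46% (SD, n = 3 each).

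Ratios within a library do not depend on how that library was scaled, and they were used to ask whether the 3 secreted factors fell by the same factor. CCL2 fell further than both others. The ratio of CCL2 to IL6 was 0.536, 0.548 and 0.490 in shControl and 0.322, 0.272 and 0.232 in shGPER libraries, and that of CCL2 to CXCL8 was 0.848, 0.866 and 0.754 against 0.441, 0.361 and 0.360. Neither pair of groups overlapped. The log2 ratio changed by -0.94 (SE 0.15) for CCL2 to IL6 and by -1.09 (SE 0.12) for CCL2 to CXCL8. Both reached p = 0.1 in the two-sided exact permutation test, the smallest value possible, or 0.15 after Benjamini-Hochberg adjustment over 3 ratios, so the test could not pass 0.05. The ratio of IL6 to CXCL8 was 1.58, 1.58 and 1.54 in control and 1.37, 1.33 and 1.55 in knockdown libraries. There the groups overlapped through shGPER library 3, and the log2 ratio changed by -0.15 (SE 0.07; exact permutation p = 0.2, adjusted over 3 ratios 0.2).

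**Figure D2:**
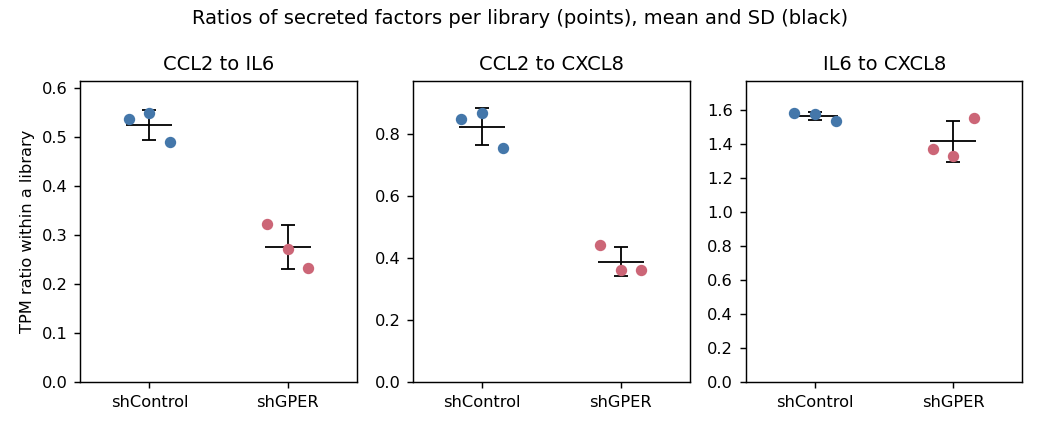
Ratio of TPM between pairs of secreted factors within each library (points), with the mean and SD of 3 libraries per group in black. The shGPER points for CCL2 to IL6 (0.232 to 0.322) and CCL2 to CXCL8 (0.360 to 0.441) lie below all control points, and those for IL6 to CXCL8 overlap them.

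Direction across the table moved with the base composition of transcripts. Genes called lower had a median GC content of 44.3%, and genes called higher had 59.6%. The members fall on the same sides: CXCL8 has 37.6%, IL6 45.8%, CCL2 46.0% and RELB 65.2%. Among the secreted factors CXCL8 has the lowest GC content and fell least. CCL2 and IL6 have nearly the same GC content but changed by -1.93 and -1.03 on the log2 scale. Whether the size of the fall followed GC content was not tested, as the secreted factors are too few. By GC content, the tested genes were then split into 10 bins of near equal size. In the bin of CXCL8 94.5% of 163 genes were called lower, in the bin shared by IL6 and CCL2 73.0%, and in the bin of RELB 5.52%. The median log2 fold change in those bins was -0.91, -0.88 and 1.10. The bins between that of CXCL8 and that of IL6 and CCL2 had medians of -0.95 and -0.95. The median thus changed little over the GC range of the secreted factors. CXCL8 differed from the median of its bin by 0.031 and RELB by -0.034. IL6 differed by -0.15 and CCL2 by -1.05, with 8 of the 163 genes of that bin lower than CCL2 and 51 lower than IL6.

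With the trend of each library with GC content removed, 62.6% of 1626 genes were called, 31.1% lower and 31.5% higher. CCL2 stayed lower at a log2 fold change of -1.26 (95% interval -1.49 to -1.03; limma, adjusted p = 1.66e-05), and IL6 stayed lower at -0.34 (95% interval -0.47 to -0.21; limma, adjusted p = 0.00109). CXCL8 was no longer called at 0.042 (95% interval -0.042 to 0.13; limma, adjusted p = 0.342), nor was RELB at -0.014 (95% interval -0.20 to 0.17; limma, adjusted p = 0.895). The trend was fitted on this selected table, in which nearly every gene differed, so its removal sets a gene against other changed genes of like GC content. It does not show that CXCL8 and RELB were unchanged. The fitted trend is also a mean, and in the bin of IL6 25.2% of genes were called higher beside 73.0% called lower. The risen genes pull such a mean up, so the value of -0.34 for IL6 depends on them. From the median of its bin IL6 differed by only -0.15, with 51 of the 163 genes lower. Scaling every library to the same sum over the listed genes shifted the median gene by 0.33 on the log2 scale, and all 4 members stayed called, with IL6 at -0.66, CXCL8 at -0.51, CCL2 at -1.56 and RELB at 1.42.

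**Figure D3:**
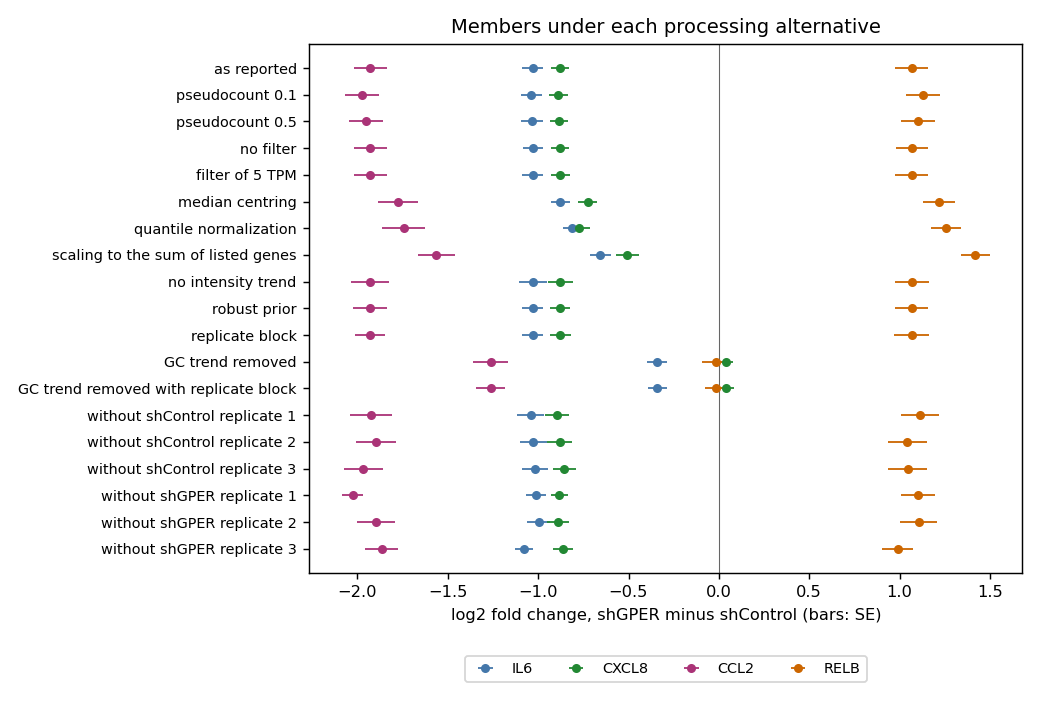
Log2 fold change of the 4 members (points, with SE bars) as reported and under each alternative way of processing, one row per setting. CCL2 and IL6 stay below 0 in every row, while CXCL8 and RELB meet near 0 in the rows with the GC trend removed.

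The pathway around the members came next, in 9 lists with 210 genes, of which the table held 25 and 24 were tested. In these lists 11 genes rose and 13 fell, 10 and 10 without the 4 members, which is close to the 47.8% and 50.6% of all tested genes. Median log2 fold changes of lists stand beside a median of -0.49 over all tested genes. Without the GC trend 6 of the 24 were higher, 9 lower and 9 not called. The background in that fit was 31.5% of 1626 genes called higher and 31.1% called lower.

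Of 5 NF-kB subunits RELB alone was listed; its partner NFKB2 and RELA, REL and NFKB1 were not analysed here. Of 12 inhibitors and feedback regulators 3 were tested, with a median log2 fold change of 1.13. NFKBIB, which encodes the inhibitor IkB-beta, rose from 18.3 ± 0.746 to 51.0 ± 6.02 TPM (SD, n = 3 each), or by 1.43 on the log2 scale and by 0.39 without the GC trend, still called. BCL3, an atypical IkB protein that acts in the nucleus with NFKB1 and NFKB2 dimers, was at 35.35, 39.17 and 40.05 TPM in shControl and at 67.57, 87.40 and 101.83 TPM in shGPER libraries. Its groups did not overlap (log2 fold change 1.13), and like RELB it lost its call without the GC trend (0.032). TNIP1, a partner of the deubiquitinase A20 that restrains the pathway, fell from 73.8 ± 2.25 to 36.8 ± 4.33 TPM, or by 0.99 on the log2 scale. TNIP1 has a GC content of 58.1%, and without the trend its fall was -1.70.

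Upstream of the subunits the table held few genes. Of 32 kinases and adaptors, CARD10, a scaffold that links receptors to the IkB kinases, rose from 3.90 to 10.2 TPM, and TBK1, a kinase of innate immune signaling, fell from 20.9 ± 1.69 to 13.2 ± 4.70 TPM (SD, n = 3 each). The shGPER libraries of TBK1 were far apart at 12.36, 9.04 and 18.31 TPM. The call of TBK1 (log2 fold change -0.67; limma, adjusted p = 0.0131) was lost with quantile normalization (-0.46), with scaling to the sum of listed genes (-0.31) and without the GC trend (0.25); CARD10 lost its call without the GC trend (0.16). Of 26 receptors, IL1R1, the interleukin 1 receptor, fell from 7.91 to 4.10 TPM and TNFRSF1B, the TNF receptor 2, rose from 0.653 to 1.73 TPM. Every shControl library had under 1 TPM of TNFRSF1B, so it could pass the filter only by being higher in shGPER, and its call was lost with quantile normalization (0.28). Neither receptor was called without the GC trend (0.083 and -0.17).

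Of 55 secreted cytokines and chemokines 7 were listed and 6 tested, of which 5 fell and 1 rose (median log2 fold change -0.95). The 5 include IL6, CXCL8 and CCL2 themselves; beside them TNFSF10 and TNFSF15 fell and LIF rose. TNFSF10, the death ligand TRAIL, fell from 5.05 ± 1.02 to 1.47 ± 0.335 TPM (SD, n = 3 each), and TNFSF15, the TNF-family ligand TL1A, from 1.47 to 0.863 TPM; all shGPER values of TNFSF15 were under 1 TPM, so only a fall could pass the filter. LIF, a cytokine that signals through gp130 as IL6 does, was the 1 that rose, from 4.76, 4.00 and 5.00 TPM in shControl to 10.91, 13.78 and 16.34 TPM in shGPER libraries. On the log2 scale LIF changed by 1.38 (SE 0.15; limma, adjusted p = 2.71e-05) and stayed called without the GC trend at 0.61. TNFSF10 also stayed called there (-0.49), whereas TNFSF15 lost its call with scaling to the sum of listed genes (-0.21) and was called higher without the GC trend (0.46). IL1B was at 0.46 TPM or less in every library and was not tested. Of 19 receptors and signaling genes of the secreted factors the table held PTPN11, the phosphatase SHP2 that gp130 recruits, which fell from 26.4 ± 0.971 to 10.8 ± 0.170 TPM (log2 fold change -1.22, without the GC trend -0.85, still called).

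**Figure D4:**
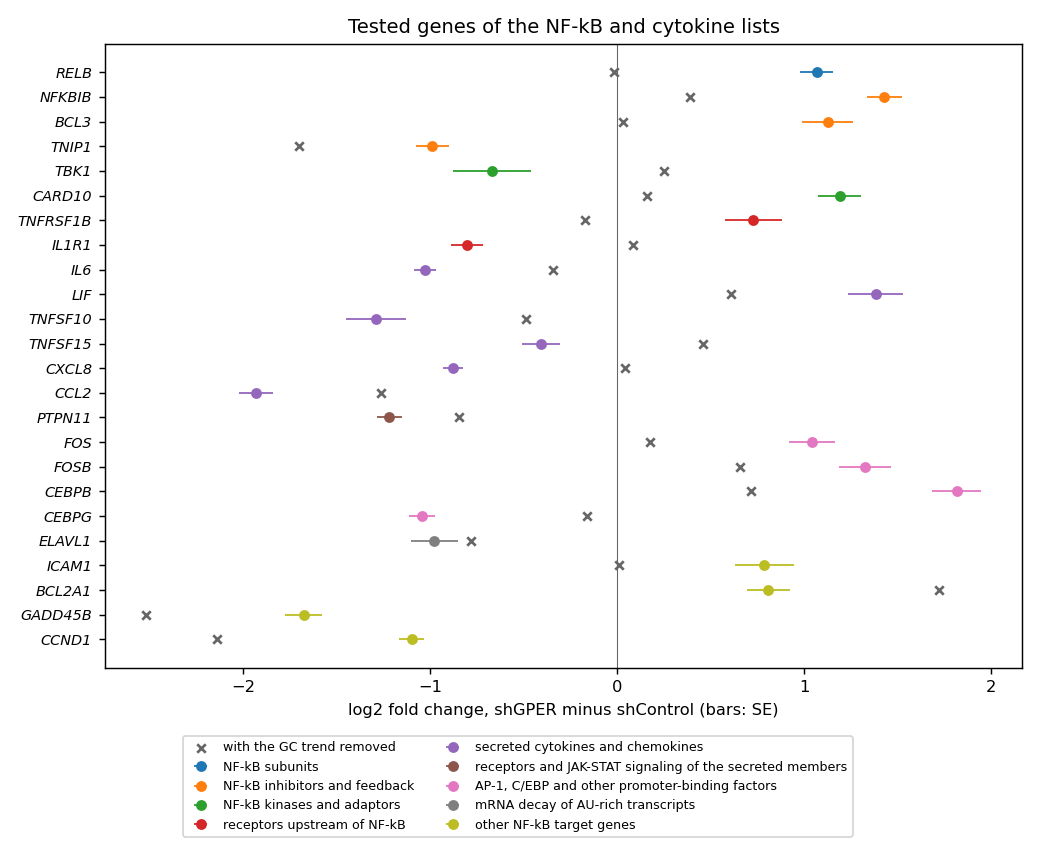
Log2 fold change of the 24 tested genes of the 9 lists (coloured points, SE bars; colour gives the list), with the value after removal of the GC trend as a grey cross. Genes lie on both sides of 0, 11 above and 13 below, and 9 of the 24 lose their call with the trend removed. Of all 1626 genes in that fit 62.6% were called.

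Factors that act on these promoters beside NF-kB moved in both directions. Of 21 AP-1, C/EBP and other factors 4 were tested, of which 3 rose and 1 fell (median log2 fold change 1.18). CEBPB, known as NF-IL6 for its binding to the IL6 promoter, was at 50.79, 54.57 and 65.00 TPM in shControl and at 167.24, 213.26 and 228.13 TPM in shGPER libraries. The change of 1.81 on the log2 scale (SE 0.13; limma, adjusted p = 2.74e-06) is opposite in sign to that of IL6 and CXCL8, and it was 0.72 without the GC trend, still called. CEBPG, a C/EBP protein without an activation domain, fell from 26.9 to 12.5 TPM (log2 fold change -1.05). Without the GC trend its value was -0.16, still called, but not with the replicate block as well (-0.16; limma, adjusted p = 0.0564). The AP-1 subunits FOS and FOSB rose from 2.36 to 5.93 TPM and from 0.50 to 2.77 TPM. FOSB, too, had under 1 TPM in every shControl library and could pass the filter only by being higher in shGPER; without the GC trend FOSB stayed called (0.66) and FOS did not (0.18).

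The stability of cytokine mRNA is set in large part by AU-rich elements in the 3' UTR, and the members differ in these. In the annotated transcript with the longest coding sequence, the ATTTA pentamer occurs 9 times in the 1255 bases of CXCL8 3' UTR, 6 times in the 432 bases of IL6, 1 time in the 379 bases of CCL2 and not in the 407 bases of RELB. The heptamer TATTTAT occurs 4 times in CXCL8, 3 times in IL6 and not in CCL2 or RELB, and 31.8% of 1474 tested genes with a 3' UTR hold it at least 1 time. ATTTA per base was higher in IL6 than in 99.5% of these genes and higher in CXCL8 than in 96.7%. Among the secreted factors CCL2 has the fewest such motifs. Of 17 genes that bind or regulate AU-rich transcripts the table held ELAVL1, the stabilising protein HuR, which was at 37.9 ± 3.59 TPM in shControl and fell to 18.9 ± 3.18 TPM (SD, n = 3 each). Its log2 fold change was -0.98, and -0.78 without the GC trend, still called. Whether these motifs or the level of ELAVL1 bear on the change of any member was not tested.

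Other known NF-kB target genes moved in both directions. Of 23, 4 were tested; 2 rose and 2 fell, and their median log2 fold change was -0.16. GADD45B, a stress sensor, fell from 18.2 ± 1.76 to 5.01 ± 0.420 TPM and CCND1, cyclin D1, from 95.5 ± 2.51 to 44.2 ± 3.38 TPM (SD, n = 3 each). Their GC content is 59.8% and 63.7%, and both fell further without the trend, by 2.52 and 2.14 on the log2 scale. ICAM1, a leukocyte adhesion receptor, rose from 1.78 to 3.74 TPM and lost its call without the GC trend (0.0076). BCL2A1, an anti-apoptotic protein, rose from 0.233 to 1.15 TPM and stayed called without the GC trend (1.72). With every shControl library of BCL2A1 under 1 TPM, no other direction could pass the filter.

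Cells other than carcinoma cells can make IL6 and CCL2, fibroblasts and endothelium among them, and their markers were looked at beside these results. Of 7 fibroblast markers 5 were listed, with a summed level of 7.04 to 9.92 TPM in shControl and 31.9 to 33.3 TPM in shGPER libraries. COL1A1 made up most of the latter, while LUM and DCN fell to 1.20 and 1.36 TPM and PDGFRA was at 0.30 TPM or less in every library. Of 5 endothelial markers 2 were listed, CDH5 and ERG, with a sum of 2.09 to 2.52 TPM and 7.52 to 8.71 TPM. CDH5 rose and ERG was not called. Without the GC trend COL1A1 (2.08) and CDH5 (1.29) stayed called higher, and ERG was called higher (0.86). LUM (0.23) and DCN (0.22) lost their calls there. Both sums were higher in the knockdown libraries, in which IL6 and CCL2 were lower, and their part in the result was not tested.

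For each member the 3 tested protein-coding genes with the most similar profile were found among 1458 others, by Euclidean distance over the 6 libraries between log2(TPM + 1) values after subtracting the control mean of each gene. Nearest to IL6 were USP39, a splicing factor, IRGQ and the actin regulator gene WASF1, at distances of 0.073, 0.091 and 0.094. CXCL8 was closest to SOAT1, a cholesterol acyltransferase, PPP1R3C, a glycogen-targeting phosphatase subunit, and KIF23, a kinesin of cytokinesis, at 0.044, 0.062 and 0.066. For CCL2 the nearest genes were ATP23, ATP6V1D, a subunit of the vacuolar proton pump, and GTF2A2, a subunit of the general factor TFIIA, farther off at 0.22, 0.22 and 0.29. RELB was nearest to SCARF2, FBRSL1 and ZW10 at 0.12, 0.15 and 0.15. The members were not the closest matches of each other. CXCL8 ranked 167th for IL6 at a distance of 0.31, and CCL2 ranked 716th at 1.60.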

How the data were processed

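One table per library was used, grouped by the titles. Each deposited table gives 1 TPM value per gene, computed by the authors; fastp, HISAT2, RSEM and build hg38 are named, with no version or settings, in the submitters' processing notes. Libraries came from a stranded mRNA kit, per the labels' protocols; depth cannot be recovered from TPM.

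The shGPER minus shControl difference of log2(TPM + 1) was tested two-sided with limma 3.58.1 (R 4.3.3), with an intensity trend in the prior and Benjamini-Hochberg adjustment over 1651 genes; 477 genes that did not reach 1 TPM in at least 3 libraries were left out. Fold changes on this scale understate changes of low genes. Positions, GC content (median over transcripts; 2078 of 2128 identifiers matched) and 3' UTRs come from GENCODE release 29 (GRCh38, also called hg38). The GC trend was a natural spline with 3 degrees of freedom per library on 1626 tested genes.

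The 4 members, the lists and the alternatives were chosen with earlier results of these data known. Named genes are the members, GPER1, up to 8 tested genes per list by smallest p, marker genes, and the 3 nearest profiles per member. IL1B, which was not tested, and the genes and annotated sets in the additional observations were picked with their values in view. Summaries used pandas 2.3.3, scipy 1.17.1 and numpy 2.4.6 under Python 3.11.15.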

Additional observations from a re-analysis of the deposited data

How the results depend on the processing

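IL6, CCL2 and GPER1 kept direction and call under all 18 alternatives, and CXCL8 and RELB under 16 of them. The exceptions were the fits with the GC trend removed, without and with a replicate block, at 0.042 for CXCL8 and -0.014 for RELB in each; list genes that changed sign there were TBK1 (0.25), TNFRSF1B (-0.17), IL1R1 (0.083) and TNFSF15 (0.46), the last called higher. The cause was not tested. Genes called higher numbered 512 and those called lower 506 without the GC trend, 493 and 498 with the block as well, against 789 and 836. List genes called higher numbered 6 in both of these fits against 11, and those called lower 8 with the block against 13. A filter of 5 TPM tests fewer genes and left 438 genes, 7 of them in the lists, called higher. Deviations of same-numbered libraries from their group means correlated at 0.033, -0.087 and 0.013 over the tested genes. Those of differently numbered libraries correlated at -0.077 to 0.067. With 3 libraries per group these values cannot show whether same-numbered libraries were paired. With the replicate block alone 790 genes were called higher and 832 lower. Leaving out each library in turn gave log2 fold changes of -1.08 to -0.997 for IL6, -0.90 to -0.86 for CXCL8, -2.03 to -1.87 for CCL2 and 0.99 to 1.11 for RELB, all called, and log2 ratio changes of -1.06 to -0.82 for CCL2 to IL6. With 3 libraries per group and no read counts, counting error is not known.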

Other observations

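The authors' tables carry pathway annotation, which sorts the members differently from the lists. IL6, CXCL8 and CCL2 share 11 annotated pathways, and none holds all 4 members. The sets named here were picked from many with their values in view. Their genes were not counted again with the GC trend removed, although direction moved with GC content across the listed genes. The set annotated as cellular senescence, which holds IL6 and CXCL8 as secreted factors of senescent cells, had 21 tested genes, of which 18 fell, both members included, and 3 rose, beside 50.6% of all tested genes called lower and 47.8% called higher. Their median log2 fold change was -1.03, against -0.49 over all tested genes. Among those that fell were the cell-cycle genes CDK6 (9.65 to 3.29 TPM), CDK1 (127 to 67.0 TPM) and RB1 (18.1 to 6.02 TPM); PIK3R2 (32.9 to 118 TPM), MAPK11 and TGFB3 rose. The set annotated as TNF signaling, which holds IL6 and CCL2, had 9 of 12 tested genes higher and 3 lower, both members included. The higher genes include TNFRSF1B, which could pass the filter only by being higher in shGPER. The difference between the sets was not tested. In the set annotated as NF-kappa B signaling, which holds CXCL8 and RELB, 4 genes rose and 4 fell. Among those that rose, BCL2A1 could pass the filter in no other direction. The annotated cytokine and receptor set had 6 genes higher and 9 lower. The receptor genes CSF2RA, IL20RB and IFNAR1 were among the lower. CNTFR, a receptor subunit that signals through gp130, was among the higher (3.34 to 9.18 TPM), as was TNFRSF1B. TNFSF15, among the lower, could pass the filter only by being lower in shGPER.

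RELB and BCL3 lie 241 kb apart on chromosome 19, and both rose. Within 1 megabase of RELB the table held 10 tested genes, and all 10 rose, with log2 fold changes from 0.88 to 3.05. They include MARK4, NECTIN2, FOSB, RTN2 and PPP1R13L. On chromosome 19 as a whole 79.3% of 184 tested genes were called higher, and the median GC content of the 10 was 61.7%. In the GC bin that holds this value 90.1% of 162 genes were called higher. With the GC trend removed, 6 of these 10 were still called higher and none lower, beside 31.5% of 1626 genes called higher. The share on chromosome 19 in that fit was not counted, so these 6 were not set against the rest of the chromosome. FOSB could pass the filter only by being higher in shGPER. Around IL6 the same window held 2 tested genes, GPNMB, which rose from 2.32 to 6.80 TPM, and IGF2BP3, which fell from 23.9 to 14.1 TPM. The table lists no gene within that distance of CXCL8 or CCL2.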
